A study of Caenorhabditis elegans with 165 samples.

Results

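The col genes of Caenorhabditis elegans encode collagens of the cuticle, the extracellular coat that covers the worm. The members described here are all genes in the count tables whose symbol is col- followed by a number, except col-19, which served as an adult marker beside them. By that rule there were 157 members among 20389 gene identifiers, of 158 such symbols in the gene table used for names, and 2 of the 157 are annotated as pseudogenes. They lie on all chromosomes, with 22 on I, 24 on II, 12 on III, 41 on IV, 31 on V and 27 on X.

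By its sample titles, the series profiled histone marks, RNA polymerase II and other chromatin proteins by ChIP-seq. Among these was the dosage compensation complex, which binds the X chromosome. The series includes 12 RNA-seq libraries of whole worms, 4 from each of 3 strains. N2 is the wild type. In 15eh1 the X chromosome is fused to chromosome V, and in YPT41 it is fused to chromosome II, so the strain comparisons address how such a fusion bears on expression. Beyond the fusion, the labels name no allele, treatment or age in hours for any group. The library titles name stages L1 to L3 and the design text names L3, and neither says whether the 4 replicates of a strain came from separate cultures, so p-values measure the spread between these libraries, which may be technical.

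The cuticle is made anew at each molt by the epidermis beneath it. Its collagens are transcribed in waves within each molting cycle, some early and some late in the cycle, and several are made for a single stage such as the dauer larva, the last larval stage or the adult. The chains are hydroxylated and folded in the secretory pathway, trimmed by proteases, secreted, and crosslinked outside the cell. A phase is used here for a set of members with a like profile over the 12 libraries, which form no time series.

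Gene counts per library ranged from 8237095 to 31234047. Levels are given in CPM, read counts scaled to the library total after TMM adjustment, with no correction for gene length, so they are compared between libraries for the same gene and not between genes. Collagen genes resemble each other in sequence, and counts of close copies may be shared, split or lost. The strand setting of the counting is not given, so reads of overlapping or antisense genes cannot be told apart.

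The first replicate of each strain stood apart from the other 9 libraries. The summed level of the 6 yolk protein genes, expressed in the adult intestine, was 66960 to 166700 CPM in the 3 replicate 1 libraries and 2.71 to 426.8 CPM in replicates 2 to 4. The 13 germline and embryo genes summed to 5648 to 17310 CPM against 72.4 to 146.8 CPM, and the 6 sperm genes to 15.4 to 41.2 CPM against 0.210 to 1.67 CPM. The 9 epidermal markers found in the files were present throughout, with a sum of 1674 to 2399 CPM in replicate 1 and 2527 to 3417 CPM in the others. The adult collagen gene col-19 was at 863.8, 714.9 and 699.1 CPM in replicate 1 of N2, 15eh1 and YPT41 and at most 7.29 CPM elsewhere. The part of such worms or tissues in the collagen levels below was not tested, and in whole-worm RNA fewer cells of a type and less RNA per cell cannot be told apart. The replicate 1 libraries therefore go against the larval labels, and the counts called between strains and the medians over members are given with and without them.

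Of the 157 members, 110 had a count in all 12 libraries and 2, col-36 and col-127, had none in any. A count of 0 in all libraries allows a pooled level of up to 0.0146 CPM, a limit that covers counting error only. A further 11 members stayed below 10 counts in every library. The rest were placed in phases, and 131 of the members passed the filter on low counts and were tested. Together the members took 1.63%, 1.29%, 1.86% and 2.47% of the gene counts in the first to last replicate of N2, or 1.81% ± 0.495 (SD, n = 4). In 15eh1 they took 2.15%, 2.102%, 1.51% and 2.42% (2.05% ± 0.384), and in YPT41 2.96%, 1.67%, 1.35% and 3.22% (2.30% ± 0.928). The 3 strains overlapped, and the spread within a strain was wider than the differences between their means. Wilson 95% intervals on these shares were at most 0.0201 percentage points wide, and cover counting error only.

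**Figure D1:**
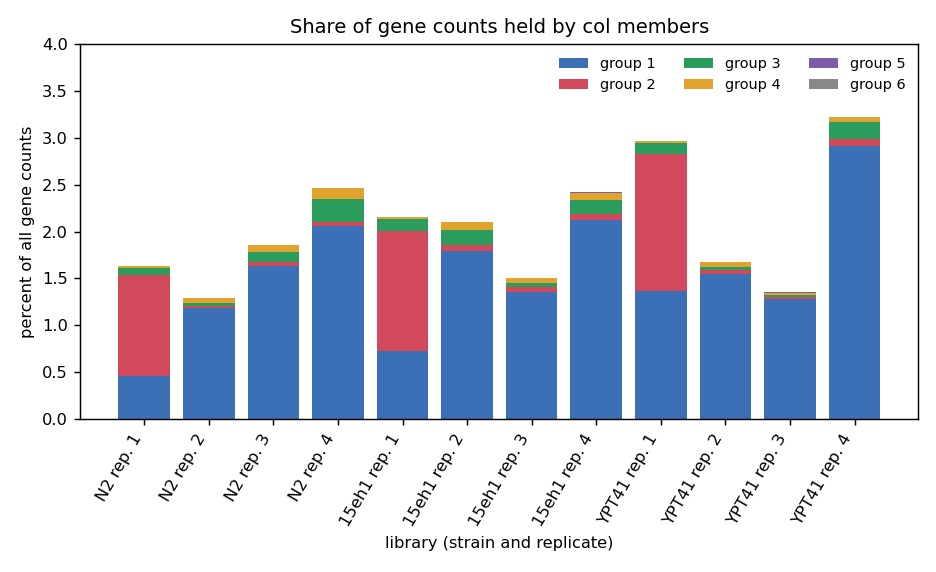
Percent of all gene counts held by the col members in each of the 12 libraries, stacked by phase group. Group 2 holds 49.4% to 65.8% of the members' counts in the replicate 1 libraries and at most 3.31% in the other 9, where group 1 holds 83.3% or more.

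Average linkage on 1 minus the Pearson correlation sorted them into 6 groups of 68, 44, 24, 5, 2 and 1. The groups were made from these values, so what separates them is a description and carries no test. Of the members placed, 58 had their highest level in YPT41 replicate 4, 31 in N2 replicate 4, 28 in YPT41 replicate 1, 13 in 15eh1 replicate 1 and 5 in N2 replicate 1. Only 7 peaked in a replicate 2 or 3 library and 2 in 15eh1 replicate 4. Among the 131 tested members, 42.8% peaked in YPT41 replicate 4 and 22.1% in N2 replicate 4, while 22.5% and 6.95% of all 13186 tested genes did so.

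**Figure D2:**
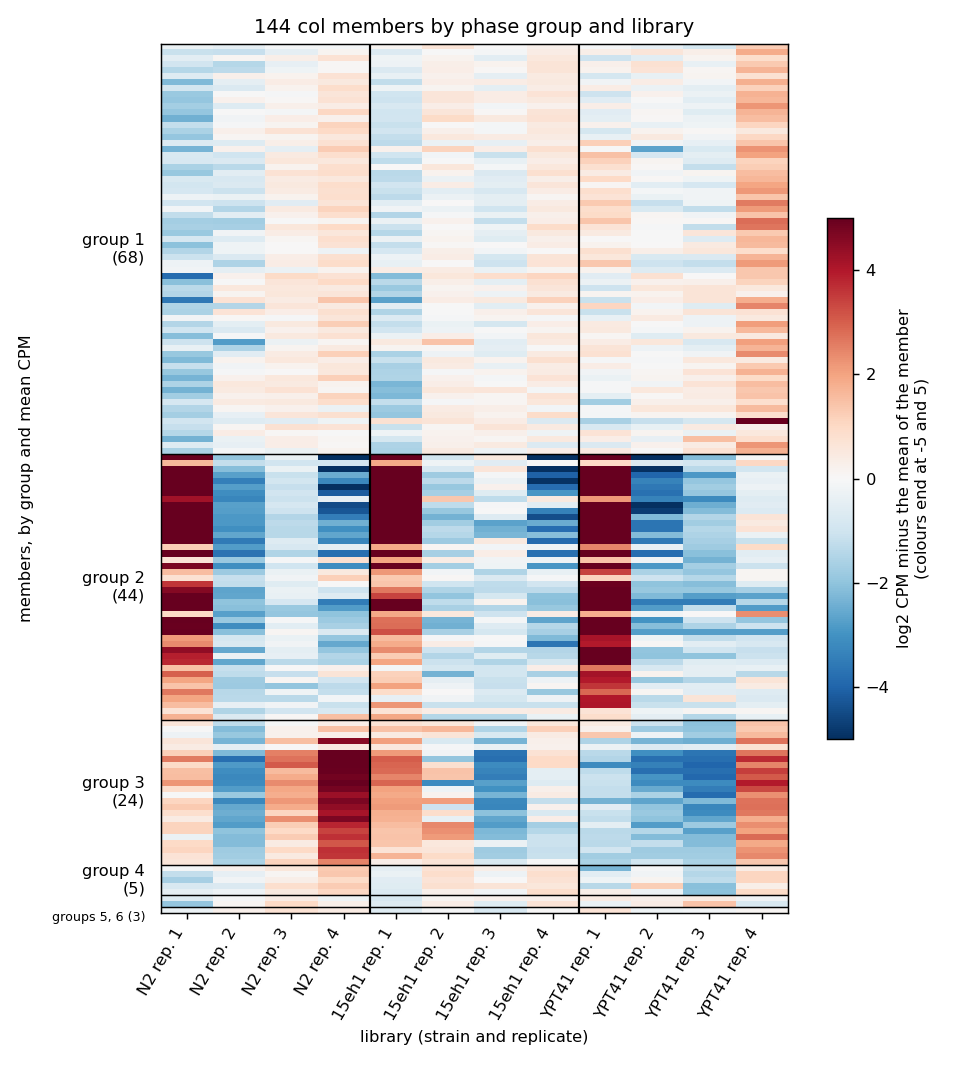
Each line is 1 of the members placed in phases and each column 1 library, with log2 CPM relative to the mean of the member in colour. Group 2 is high in the replicate 1 column of each strain, group 3 is highest in N2 replicate 4 and then YPT41 replicate 4, and group 1 is low in replicate 1 of N2 and 15eh1 and high in YPT41 replicate 4.

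Group 1 was the largest, with 68 members whose means over the libraries ran from 0.297 to 1470.0 CPM. Its median log2 CPM relative to the member mean was −1.45, −0.34, 0.29 and 0.66 over the N2 libraries in the order of the replicates, and −1.05, 0.21, −0.12 and 0.45 over those of 15eh1. In YPT41 it was 0.17, 0.00, −0.17 and 1.54. Thus replicate 1 was the low library of N2 and 15eh1, YPT41 replicate 1 was near the member mean, and YPT41 replicate 4 was the highest of the 12. Over all 131 tested members, whatever their group, 52 in N2, 42 in 15eh1 and 16 in YPT41 were lower in replicate 1 by more than 1 on the log2 scale than the mean of replicates 2 to 4. These are 39.7%, 32.1% and 12.2% of the members, against 28.9%, 25.7% and 17.5% of all tested genes. Higher by as much were 26.7%, 40.5% and 30.5% of the members, against 26.1%, 25.7% and 21.8% of genes.

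The members of group 1 with the highest mean were col-160, col-42 and col-41. The level of col-160 was 1102, 998, 1275 and 1263 CPM in N2, 1480, 2159, 1398 and 1632 CPM in 15eh1, and 1313, 1023, 735 and 3266 CPM in YPT41, in the order of the replicates. It was in the same range in replicate 1 as in the other libraries, and YPT41 held both its lowest and its highest value. For col-42 the values were 524.6, 510.0, 818 and 1218 CPM in N2, 704, 1110.0, 1034 and 1431 CPM in 15eh1, and 1371, 1708, 1365 and 4006 CPM in YPT41. All 4 YPT41 values of col-42 lay above all 4 of N2, and YPT41 replicate 4 was far above the rest. For col-41 they were 746, 1130.0, 1299 and 1755 CPM in N2, 918, 1198, 746 and 1533 CPM in 15eh1, and 519.6, 737, 1166 and 1980.0 CPM in YPT41, where replicate 4 was the highest in N2, 15eh1 and YPT41 alike.

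Several long-studied collagens fell in group 1. The collagen gene col-10, whose extra expression has been tied to longer life, stood at 177 CPM in replicate 1 of N2, while its replicates 2 to 4 gave 638, 608 and 970.2 CPM. In 15eh1 it was at 321.5 CPM and then 978, 823 and 1023 CPM, and in YPT41 at 312 CPM and then 741, 524 and 2146 CPM. Replicate 1 was below all other replicates in each of the 3 strains, with no overlap, and the replicate number passed its test for col-10 (edgeR, adjusted p = 0.000926). The gene col-144 was also lowest in replicate 1 of each strain, at 53.8, 221, 225 and 298 CPM in N2, 91.7, 298, 277 and 277 CPM in 15eh1 and 161, 288.5, 184 and 425 CPM in YPT41.

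The gene col-12, used in studies of the molting cycle as a late collagen, was at 27.8, 26.1, 36.6 and 84.1 CPM in N2 and 38.04, 54.3, 38.7 and 69.8 CPM in 15eh1. In YPT41 it was at 135, 24.2, 47.2 and 331 CPM, so replicates 1 and 4 of YPT41 held its highest values. The early collagen dpy-7, which is no member, was at 126 CPM in YPT41 replicate 4, within its range of 101.1 to 140.9 CPM in the 9 libraries of replicates 2 to 4. The neighbour of col-12, col-13, followed it, with 35.4 and 92.2 CPM in YPT41 replicates 1 and 4 and at most 25.6 CPM in the other 10 libraries. The gene col-14 was highest in those same libraries, at 270.5 and 260.7 CPM, and ranged from 49.7 to 179 CPM in the others. By contrast col-17 was lowest in YPT41 replicate 1, at 550.1 CPM, and highest in YPT41 replicate 4, at 1755 CPM. The genes col-12 and col-17 thus did not keep a fixed ratio over the libraries.

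Within group 1 YPT41 replicate 4 exceeded the median of the other 11 libraries by a factor of 2.80 at the median member, and 48 of the 68 exceeded it by a factor of 2 or more. Against N2 replicate 4 alone, 59 of 68 were higher, 31 of them by a factor of 2 or more, with a median ratio of 1.87. Group 1 was made from these values, and the same factors are not given here for all genes. Of all 13186 tested genes, 22.5% were highest in YPT41 replicate 4. The summed level of the 9 epidermal markers in YPT41 replicate 4, 2799 CPM, lay inside their range in replicates 2 to 4, while the sums of the 6 neuronal markers, 2434 CPM, and the 5 muscle markers, 23840 CPM, were the highest of the 12 libraries. Their part in the collagen levels was not tested. The size of group 1 rested on the replicate 4 libraries: 37 of its 68 members stayed together without that of N2, 36 without that of 15eh1 and 35 without that of YPT41. An extreme case, chosen after its values were seen, was col-108, at 19.8 CPM in YPT41 replicate 4 and between 0.0895 and 0.935 CPM in the other 11 libraries.

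The gene col-99, which encodes a transmembrane collagen and not a cuticle component, was also placed in group 1. It stayed between 11.5 and 28.1 CPM in all 12 libraries, and its replicate number did not pass (adjusted p = 0.0831, edgeR).

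**Figure D3:**
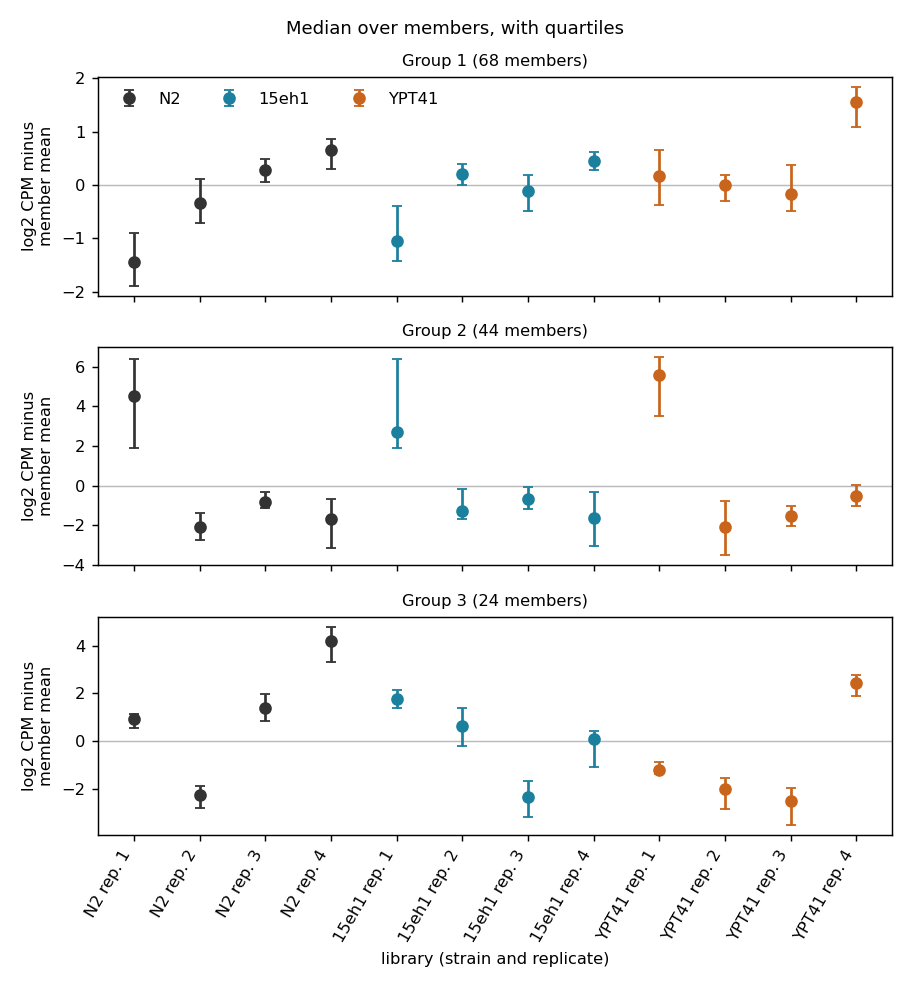
Points are the median over the members of groups 1, 2 and 3 of log2 CPM minus the member mean, with quartiles as bars, for each library. The vertical scales differ: group 1 runs from −1.45 to 1.54, group 2 from −2.11 to 5.58 and group 3 from −2.50 to 4.19.

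Group 2, with 44 members, was the set of the replicate 1 libraries. Its median relative log2 CPM was 4.50 in N2 replicate 1, 2.70 in 15eh1 replicate 1 and 5.58 in YPT41 replicate 1, and between −2.11 and −0.54 in the other 9 libraries. Of the 44, 38 were higher in replicate 1 than in all other replicates of the strain in each of the 3 strains. Over all phases, 30 of the 131 tested members (22.9%) had that order, against 27.9% of all tested genes, and 23 (17.6%) had the opposite order, against 27.4%. The family as a whole was thus split by replicate 1, and by this order in all 3 strains its share exceeded that of all tested genes in neither direction. By the log2 difference of more than 1 given above, its share was above that of genes in both directions in 15eh1. In N2 it was above that of genes for lower levels, and near it for higher levels (26.7% against 26.1%). In YPT41 it was above that of genes for higher levels only.

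The members of group 2 differed in the order of the 3 replicate 1 libraries. The leading member, col-122, was at 1687, 2051 and 1602 CPM in replicate 1 of N2, 15eh1 and YPT41 and at 0 to 12.4 CPM in the other 9 libraries. For col-119 the replicate 1 values were 1544, 1609 and 1263 CPM, and the others 0 to 12.7 CPM. Among the 10 members of group 2 with the highest mean, col-122, col-119, col-124, col-140, col-181, col-106, col-20 and col-178 all lay between 465.7 and 2051 CPM in replicate 1 and at most at 15.3 CPM elsewhere. For these 8 the level in YPT41 replicate 1 was 0.656 to 1.13 of that in 15eh1 replicate 1. These 8 were chosen with their values known. The same ratio was 0.538 for col-80 and 0.141 for col-101, which complete the 10.

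Within the same 10, col-80 and col-101 differed. The gene col-80 was never low, at 1030.0, 147.0, 170.0 and 175 CPM in N2, 1241, 289.9, 224 and 325.5 CPM in 15eh1 and 668, 201, 178.5 and 677 CPM in YPT41, so YPT41 replicate 4 was as high as replicate 1. The gene col-101, likewise chosen with its values known, was at 714 and 1229 CPM in replicate 1 of N2 and 15eh1 and at 173.5 CPM in that of YPT41, with at most 97.5 CPM elsewhere.

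For other members YPT41 replicate 1 was above N2 replicate 1, and N2 replicate 1 above 15eh1 replicate 1. Among them were col-38, col-49, col-63 and col-138, which are known as collagens of the last larval stage, L4. The level of col-38 was 78.3 CPM in N2 replicate 1, 20.3 CPM in 15eh1 replicate 1 and 257 CPM in YPT41 replicate 1, and at most 2.48 CPM in the other 9 libraries. That of col-138 was 74.3, 15.9 and 228 CPM in the same libraries, with at most 1.08 CPM elsewhere. The same order held for col-63, at 29.3, 6.13 and 118 CPM, and for col-49, at 26.6, 7.07 and 87.3 CPM. All 4 genes passed the test of the replicate number (edgeR, adjusted p of 1.0e-05 to 3.3e-05).

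With a ratio of 3 between YPT41 replicate 1 and 15eh1 replicate 1 as the limit, set after the values were seen, 18 of the 44 members were at or above it. Their median ratio was 11.99, with a range of 3.05 to 43.9, and 16 of the 18 had the order YPT41, N2, 15eh1, the exceptions being col-137 and col-7. The median ratio of the other 26 was 0.870, with a range of 0.141 to 2.33. Besides the L4 genes, the 18 included col-71 at 92.3, 20.4 and 237 CPM, col-175 at 30.2, 6.76 and 103 CPM, and col-88 at 13.1, 2.08 and 42.6 CPM in replicate 1 of N2, 15eh1 and YPT41. The gene col-120, like col-10 tied to longer life when overexpressed, was at 9.41, 2.60 and 39.7 CPM and at most 0.334 CPM elsewhere.

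The adult collagen gene col-7 was also among the 18, at 0.607, 1.04 and 4.03 CPM in replicate 1 and at most 0.103 CPM elsewhere, which is under the level of 3 counts in those libraries. The yolk gene vit-2 had the opposite order to the L4 collagens, at 53120, 57420 and 28820 CPM in replicate 1 of N2, 15eh1 and YPT41. The yolk genes as a set did not have that order, with sums of 166700, 158900 and 66960 CPM in the same libraries. The germline and embryo genes summed to 17310, 14540 and 5648 CPM, so both sums were highest in N2 and lowest in YPT41. The adult collagen gene bli-1, which is needed for the struts between the cuticle layers, was at 283.9, 40.5 and 110.4 CPM. The receptor gene nhr-23, a regulator of molting, was at 245, 165 and 60.2 CPM there and between 21.1 and 57.4 CPM in the other 9 libraries.

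Group 3, with 24 members, peaked in replicate 4 of N2. Its median relative log2 CPM over replicates 1 to 4 was 0.91, −2.28, 1.40 and 4.19 in N2, 1.75, 0.64, −2.32 and 0.10 in 15eh1, and −1.21, −1.995, −2.50 and 2.43 in YPT41. Of the 24, 20 were highest in N2 replicate 4 and 3 in YPT41 replicate 4, and for 16 YPT41 replicate 4 came second. At the other end, 17 of the 24 had 3 counts or fewer in N2 replicate 2, 16 in 15eh1 replicate 3, 17 in YPT41 replicate 2 and 18 in YPT41 replicate 3. In 15eh1 the highest median was that of replicate 1, not of replicate 4.

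The dauer collagens col-2 and col-40 belonged to group 3. The gene col-2 was at 4.96, 0.0700, 6.14 and 48.7 CPM in N2, at 9.35, 4.37, 0.0434 and 1.13 CPM in 15eh1 and at 0.716, 0.111, 0 and 14.6 CPM in YPT41. These levels rest on 1633 counts in N2 replicate 4 and 233 in YPT41 replicate 4, but on 0 to 2 counts in N2 replicate 2, 15eh1 replicate 3 and YPT41 replicates 2 and 3. The gene col-40 followed it closely, at 4.35, 0.0700, 4.64 and 47.9 CPM in N2, 11.02, 4.09, 0.0434 and 1.00 CPM in 15eh1 and 0.537, 0, 0 and 17.0 CPM in YPT41. Within N2 the 4 libraries thus covered a range as wide as that over all 12, and the strains overlapped.

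Over the 18 members of group 3 with a mean below 20 CPM, the summed level was 43.7, 0.910, 72.0 and 480.1 CPM in N2, 88.0, 33.6, 1.04 and 16.3 CPM in 15eh1 and 5.37, 1.49, 0.223 and 137.7 CPM in YPT41. Behind the lowest of these sums stand 2 counts, in YPT41 replicate 3, and behind the highest 16103. Single members departed from the sum: in 15eh1 replicate 2, relative log2 CPM was −3.16 for col-102 and 2.42 for col-85, a pair chosen with its values known.

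The 3 leading members of group 3 were never near 0. The gene col-93 was at 503, 135, 315 and 419 CPM in N2, 548, 489, 291 and 492 CPM in 15eh1 and 446, 155, 78.8 and 891 CPM in YPT41. The level of col-176 was 215, 48.4, 254 and 612 CPM in N2, 606.5, 703, 76.5 and 498 CPM in 15eh1 and 256, 62.0, 54.8 and 551 CPM in YPT41. The low libraries of both were those in which col-2 and col-40 were near 0. For col-159 the values were 127, 39.8, 172 and 177.5 CPM in N2, 206, 236, 87.4 and 198 CPM in 15eh1 and 377, 124, 44.7 and 445 CPM in YPT41.

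**Figure D4:**
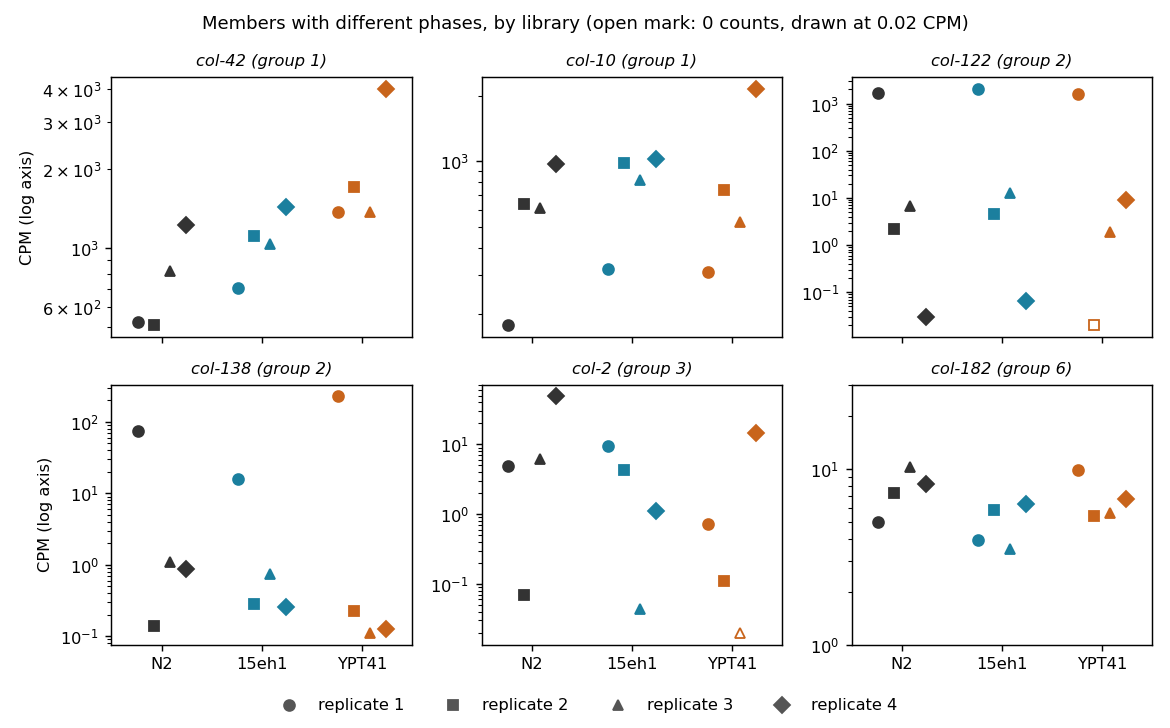
CPM on a log axis in each library for 6 members, with the strain on the horizontal axis and the replicate as the shape of the mark; open marks are libraries with 0 counts, drawn at the bottom. Replicate 1 is lowest for col-10 and highest for col-122 and col-138, whose 3 replicate 1 values are close for the former and ordered YPT41, N2, 15eh1 for the latter, and col-2 is highest in N2 and YPT41 replicate 4.

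Group 4 held col-149, col-169, col-170, col-94 and col-68, all of them highest in N2 or YPT41 replicate 4. The gene col-149 was at 256, 316, 407 and 684 CPM in N2, 198, 449, 337 and 419 CPM in 15eh1 and 56.1, 263, 116 and 357 CPM in YPT41. The neighbours col-169 and col-170 had their lowest values in N2 replicate 1 or YPT41 replicate 3, at 48.7 CPM for col-169 in the latter and 10.9 CPM for col-170 in the former. Their highest were 332 CPM in N2 replicate 4 and 73.5 CPM in YPT41 replicate 4. Groups 5 and 6 held 3 members between them. Of these, col-153 stayed between 8.31 and 19.4 CPM, col-75 between 0.101 and 2.12 CPM and col-182 between 3.47 and 10.3 CPM in all libraries.

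Members next to each other among the protein-coding genes of a chromosome formed 23 pairs, and 10 of these (43.5%) were in the same group, against 34.6% of all pairs of members. The group 3 genes col-50 and col-51 were such a pair, as were col-12 with col-13, col-169 with col-170 and col-178 with col-179. In other pairs, such as col-17 with col-20 and col-159 with col-160, the neighbours were in different groups. Counts of neighbours may share reads, and pairs that share a member are not independent.

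Of the 131 tested members, 87 (66.4%) passed the edgeR test of the replicate number, against 53.7% of all genes tested. With replicates 2 to 4 only, 0.0% of 13299 genes passed. A deviation shared by libraries of the same number was thus called only in fits that held replicate 1 libraries. An unadjusted p under 0.05 was found for 46 of 126 members, a larger share than the 8.92% (1186) of all 13299 genes. The test says nothing of the direction.

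Between strains no member passed the edgeR test in any of the 3 comparisons. The background was 0.0% of 13186 genes for 15eh1 against N2, 0.22% (29 genes) for YPT41 against N2 and 0.182% (24 genes) for 15eh1 against YPT41. At an unadjusted p under 0.05 there were 0, 8 and 5 of the 131 members, each a smaller share than the 1.56%, 8.82% and 5.76% of all genes. DESeq2 called 0, 1 and 0 members, the 1 being col-42 (adjusted p = 0.0385), against 0.101%, 2.12% and 1.13% of genes. With replicates 2 to 4 only, edgeR called 0 of 126 members in each comparison, against 0.015%, 1.01% and 0.556% of genes. In that fit 6, 13 and 2 of the 126 members had an unadjusted p under 0.05, against 613, 2313 and 1629 of 13299 genes. The median log2 fold change over the 131 members was −0.12 for 15eh1 against N2, with 55 above 0, while the median of all genes was 0.01. For YPT41 against N2 it was 0.40 with 87 above 0, against 0.03 for all genes, and for 15eh1 against YPT41 it was −0.35 with 35 above 0, against −0.02. The comparisons share libraries, so these medians are not independent.

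The medians rested on single libraries. Without YPT41 replicate 4 the median of YPT41 against N2 was −0.03, without YPT41 replicate 1 it was −0.02, and with replicates 2 to 4 only it was 0.10. With replicates 2 to 4 only, the medians of 15eh1 against N2 and of 15eh1 against YPT41 were −0.16 and −0.24. Without YPT41 replicate 4 the median of 15eh1 against YPT41 was 0.01, and without N2 replicate 4 that of 15eh1 against N2 was 0.08.

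**Figure D5:**
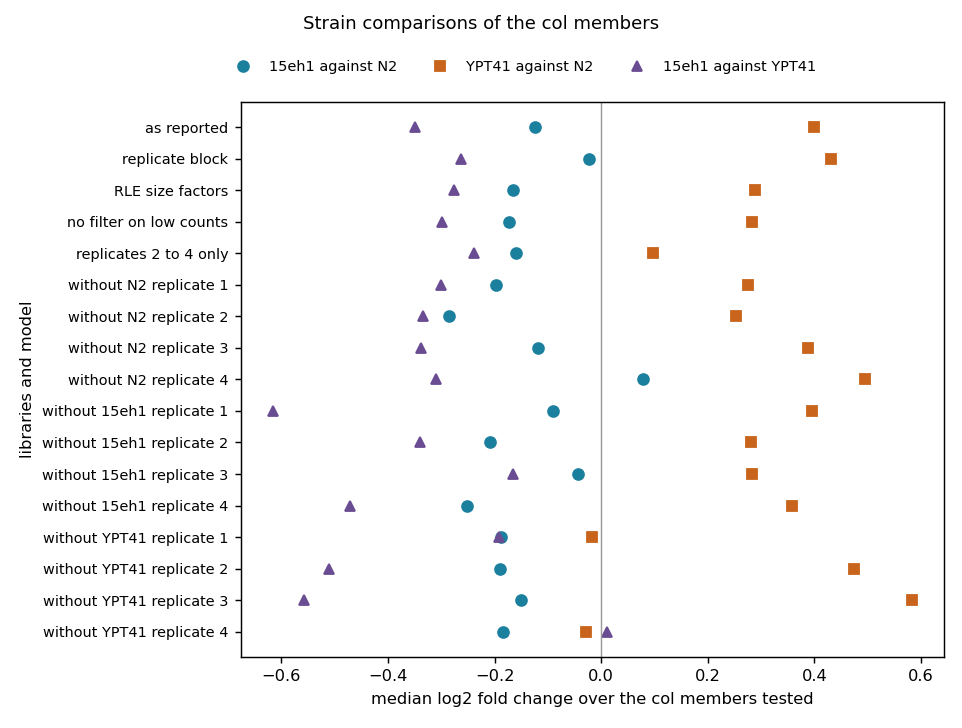
Median log2 fold change over the col members tested in each strain comparison, for the fit as reported and for each other model or set of libraries. The values of YPT41 against N2 run from −0.03 to 0.58 when single libraries are left out, and the 2 that fall below 0 leave out YPT41 replicate 1 or replicate 4.

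By group, the median of YPT41 against N2 was 0.58 over the 66 tested members of group 1, 58 of them above 0, and 0.28 with replicates 2 to 4 only. In group 2 it was 0.61 over 35 members and 0.19 over 29 with replicates 2 to 4 only, and in group 3 −1.69 over 22 members and −1.81 over 23. The median of 15eh1 against N2 was −0.05 and −0.16 in group 1, 0.04 and 0.66 in group 2, and −1.95 and −3.25 in group 3, with all libraries and with replicates 2 to 4 only. The groups were made from these libraries, so their medians are a description. Those of group 3 in both comparisons share the N2 libraries, of which replicate 4 held the highest levels of 20 of its members.

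By chromosome, the median of 15eh1 against N2 was highest on V, the fused autosome, at 0.09 with 18 of 28 members above 0. It was 0.04 on X and between −0.40 and −0.05 on the other chromosomes. With replicates 2 to 4 only, V was again highest, at 0.05 with 14 of 28 above 0. In YPT41 against N2 the median on II, the fused autosome there, was 0.17 with 11 of 18 above 0, above that of X at 0.07 and below the 0.30 to 0.61 of the other chromosomes. With replicates 2 to 4 only it was −0.22 with 6 of 18 above 0, the lowest of the 6 chromosomes. The differences between chromosomes were not tested.

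The members with the smallest p in YPT41 against N2 were col-42, col-146 and col-103. For col-42 the mean was 2112 ± 1273 CPM in YPT41 and 768 ± 332 CPM in N2 (SD, n = 4), with a log2 fold change of 1.46 ± 0.42 (SE, edgeR, adjusted p = 0.235). For col-103 the levels were 514, 373, 750.4 and 1043 CPM in N2, 839, 1238, 1127 and 1566 CPM in 15eh1 and 1211, 1722, 775 and 2521 CPM in YPT41, a log2 fold change of 1.22 ± 0.40 in YPT41 (adjusted p = 0.330, edgeR). For col-146 they were 12.04, 11.6, 38.6 and 43.4 CPM in N2, 32.4, 45.3, 17.2 and 50.3 CPM in 15eh1 and 103, 40.9, 40.8 and 276.5 CPM in YPT41, and the groups overlapped (2.12 ± 0.69, adjusted p = 0.320, edgeR).

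With the replicate number as a block, 7 of the 131 members passed in YPT41 against N2, 6 higher and 1 lower. Of all 13186 genes 5.2% (686) passed, 4.1% higher and 1.1% lower, so the members were near the share of all genes. In the other 2 comparisons 0 members passed, where 0.0683% and 1.83% of genes did. With the block and replicates 2 to 4 only, 0 of 126 members passed in any comparison, against 0.00752%, 1.2% and 0.519% of genes. The 7 calls were thus not made without the replicate 1 libraries, where col-137 was too low to be tested. Higher in YPT41 with the block were col-42 (1.40 ± 0.24, adjusted p = 0.0103), col-98 (1.37 ± 0.28, adjusted p = 0.0221), col-137 (2.21 ± 0.46, adjusted p = 0.0229), col-96 (2.42 ± 0.56, adjusted p = 0.0326), col-103 (1.19 ± 0.30, adjusted p = 0.0460) and col-118 (1.12 ± 0.29, adjusted p = 0.0464), all as log2 fold change with its SE from edgeR. Lower was col-149 (−1.28 ± 0.31, adjusted p = 0.0388, edgeR). The levels of col-98 were 349, 376, 790.0 and 959 CPM in N2 and 1035, 1501, 981 and 2987 CPM in YPT41. The lowest YPT41 value, 981 CPM, was just above the highest of N2, 959 CPM. Those of col-96 were 16.5, 1.19, 2.12 and 1.97 CPM in N2 and 29.3, 7.30, 8.36 and 41.99 CPM in YPT41, and of col-118 13.9, 33.7, 39.3 and 32.7 CPM in N2 and 68.0, 47.2, 57.3 and 70.9 CPM in YPT41. The gene col-137 was low, at 1.62 and 7.61 CPM in replicate 1 of N2 and YPT41 and at most 0.750 CPM in replicates 2 to 4 of either. Its log2 fold change without the block was 2.40, but 0.093 without YPT41 replicate 1 and 4.37 without N2 replicate 1. Without the block and with any 1 library left out, the log2 fold change was 0.86 to 1.66 for col-42, 0.84 to 1.57 for col-98, 0.81 to 1.43 for col-103, 0.69 to 1.17 for col-118, 1.43 to 3.51 for col-96 and −1.58 to −0.83 for col-149.

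In 15eh1 against N2 the smallest p belonged to col-103 (0.83 ± 0.40), col-182 (−0.65 ± 0.34) and col-141 (1.30 ± 0.70), with an adjusted p of 1 for each by edgeR. The level of col-141 was 3.85, 1.05, 6.60 and 8.59 CPM in N2 and 11.2, 21.8, 5.59 and 11.1 CPM in 15eh1, and the strains overlapped. In 15eh1 against YPT41 they were col-146 (−1.67 ± 0.68, adjusted p = 0.770), col-104 (−1.20 ± 0.50, adjusted p = 0.780) and col-130 (−1.42 ± 0.60, adjusted p = 0.800), all by edgeR. For col-130 the levels were 33.6, 51.3, 41.97 and 94.9 CPM in 15eh1 and 132, 69.0, 64.9 and 327 CPM in YPT41. For col-104 they were 38.7, 77.9, 64.9 and 116 CPM in 15eh1 and 192, 99.3, 83.5 and 306 CPM in YPT41.

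Of the 100 tested genes nearest the right end of V, where 1 member lies, col-163 was at 0.809, 0, 3.35 and 17.9 CPM in N2 and 2.18, 0.423, 0 and 0.742 CPM in 15eh1, with overlapping strains (−2.80 ± 1.65, adjusted p = 1, edgeR). Without N2 replicate 4 the log2 fold change was −0.84, and without 15eh1 replicate 1 it was −3.80. It is a member of group 3 and had the profile of that group. Among the 100 nearest the left end of II, col-68 was at 0.911, 1.05, 1.86 and 2.74 CPM in N2 and 1.61, 1.05, 0.223 and 2.62 CPM in YPT41 (−0.25 ± 0.62, adjusted p = 0.942, edgeR). The other, col-69, was at 0.506, 1.40, 2.99 and 3.43 CPM in N2 and 1.79, 2.101, 2.12 and 3.5 CPM in YPT41 (0.17 ± 0.63, adjusted p = 0.961, edgeR).

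Other genes of cuticle synthesis were counted beside the members. Of 9 tested genes for hydroxylation, folding and crosslinking of collagen chains, among them dpy-18 and phy-2, subunits of prolyl 4-hydroxylase, and pdi-2, their partner, none passed in any strain comparison and 5 passed for the replicate number, as did 53.7% of all genes. The level of pdi-2 was 2087, 1670.0 and 1273 CPM in replicate 1 of N2, 15eh1 and YPT41 and 2124 to 3998 CPM in the other 9 libraries, with no overlap between replicate 1 and the rest. The other genes of this list did not all follow it. Among the N2 libraries, replicate 1 was lowest for dpy-18, phy-2, let-268 and bli-3 but highest for dpy-11, mlt-7, tsp-15, doxa-1 and phy-3. Among 14 regulators of the epidermis, molting and larval timing, none passed between strains by edgeR and 8 passed for the replicate number, again near the share of all genes. DESeq2 called 1 regulator, myrf-1, a transcription factor of larval timing, lower in YPT41 than in N2 by 1.02 on the log2 scale (adjusted p = 0.00798, DESeq2). It is named with its values known, and edgeR gave −0.92 ± 0.27 (adjusted p = 0.236). The processing proteases, 3 tested, gave 0 and 1.

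Of the 20 named cuticle collagens, col-19 among them, all passed for the replicate number, against 53.7% of all genes. With replicates 2 to 4 only, none of these 20, of the 9 or of the 14 passed for it. Between YPT41 and N2 1 of the 20 passed, sqt-2, a collagen that shapes the body, with 25.2, 109.6, 91.0 and 142 CPM in N2 and 0.179, 0.332, 0 and 0.188 CPM in YPT41 (edgeR, adjusted p = 0.00198). In 15eh1 sqt-2 was at 20.5, 77.2, 74.8 and 108 CPM, and it also passed in 15eh1 against YPT41 (8.48 ± 0.88, adjusted p = 0.00364, edgeR). The cause of its low level in YPT41 was not tested. With the replicate block sqt-1 passed as well in YPT41 against N2 (−1.48 ± 0.28, adjusted p = 0.0136, edgeR), as it did with replicates 2 to 4 only (adjusted p = 0.00804, edgeR). In 15eh1 against YPT41 sqt-1 passed with the block (1.40 ± 0.27, adjusted p = 0.0281, edgeR) and with replicates 2 to 4 only (adjusted p = 0.0121, edgeR).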

How the data were processed

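RNA-seq reads were counted per gene, and the authors deposited whole-number counts in 1 table per library for 12 libraries. The submitters' processing notes name HTSeq, TopHat2 2.1.1 and SAMtools 1.6, besides Bowtie 1.2.0, CASAVA 1.8, bedtools and MACS 1.4.3, and do not say which served for these counts. In the sources used here neither the genome build nor the annotation release or strand setting is given. The other 153 samples of the series were not analysed here. Lines without a gene stayed out of totals: 2.48% to 4.25% of reads had no feature, 0.656% to 0.893% were ambiguous and 13.2% to 22.7% were not unique. Within each strain no library repeated another (lowest chi-square per gene 22.3).

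Symbols, chromosomes and gene order came from the RefSeq gene table for WBcel235, which matched 19879 of the identifiers. The members, lists and groups of genes were chosen with earlier results of these data known. Strains were compared with edgeR 4.0.16 in R 4.3.3 (TMM, filterByExpr by strain, quasi-likelihood tests in 1 fit of 12 libraries, two-sided p-values adjusted by Benjamini-Hochberg over all genes tested, threshold 0.05). The replicate number was tested by its F-test beside strain. Phases used members with at least 10 counts in a library, log2 CPM with a prior count of 2, average linkage and 6 groups.

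Deviations from the strain mean were correlated between libraries of different strains with the same replicate number (12 correlations of 0.319 to 0.942). Replicate 1 entered each strain mean, and libraries with different numbers were not compared, so these values do not show a pairing of replicates 2 to 4. The shared numbers were taken to pair the libraries, and the replicate block was run beside the strain fit. Named members were the 3 with the highest mean in each phase, those with the smallest p, 16 known from the literature, those in the 100 tested genes nearest the fused ends, and the 5 with the highest mean CPM, which replaced a rule per coding length because no lengths were used here. Members beyond these, and those called with the block, were added with their values known. Comparison of proteins and promoters was not run. Alternatives were DESeq2 1.42.0, size factors of its kind, no filter, replicates 2 to 4 only, and each library left out.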

Additional observations from a re-analysis of the deposited data

Results flagged for a closer look

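In 119 sets of the 4 libraries of a strain, 116 for a named member and 3 for the share of all members, 12 held a library whose gap to the others was above Dixon's 95% critical value. Chance flags about 1 in 20 such sets. Replicate 1 was the high library for col-80 in N2 (1030.0 CPM), for col-7 in 15eh1 (1.04 CPM) and YPT41 (4.03 CPM), for col-38 in 15eh1 (20.3 CPM) and YPT41 (257 CPM), for col-49 in 15eh1 (7.07 CPM) and YPT41 (87.3 CPM), for col-138 in YPT41 (228 CPM) and for col-120 in YPT41 (39.7 CPM). It was the low library for col-153 in 15eh1 (8.31 CPM) and for col-144 in 15eh1 (91.7 CPM). For col-176 in 15eh1 the low library was replicate 3, at 76.5 CPM. These 12 sets involve 9 members, 6 of them of group 2.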

How the results depend on the processing

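Of 140 values recomputed for counts, medians, shares and group sizes, 133 stayed on their side of the threshold or within the spread between libraries and 7 moved. The SD between libraries of a strain of the median log2 CPM over members was 1.08. This is wider than every median fold change given below, so staying within the spread says little of the medians. The number of col members called in YPT41 against N2 was 7 with the replicate block and 1 with DESeq2, against 0, and the block changed no call of a member in the other 2 comparisons. The number called for the replicate number was 0 with replicates 2 to 4 only, against 87, and 65 to 113 when single libraries were left out. With any 1 library left out, 0 members were called between strains. The median over members ran from −0.29 to 0.08 for 15eh1 against N2, from −0.03 to 0.58 for YPT41 against N2 and from −0.62 to 0.01 for 15eh1 against YPT41. The largest phase held 105 members with replicates 2 to 4 only, and 43 to 73 without single libraries. Of its 68 members 37 stayed together without N2 replicate 4, 36 without 15eh1 replicate 4 and 35 without YPT41 replicate 4. Of group 2, 40 to 44 of 44 stayed together without single libraries, but 19 with replicates 2 to 4 only. Of group 3, 21 to 24 of 24 did, and 24 with replicates 2 to 4 only. Staying together does not mean staying apart from other groups. With replicates 2 to 4 only the largest phase, of 105 members, was larger than the 68 of group 1. The 24 are thus not shown to be a phase of their own there. For YPT41 against N2 the log2 fold change of col-69 was −0.15 with replicates 2 to 4 only, −0.12 with the block as well, and −0.24 to 0.41 without single libraries. That of col-68 was −0.86 to 0.077, above 0 only without YPT41 replicate 3. The causes were not tested. Levels under 3 counts, 0.0960 to 0.364 CPM in a library, cannot be told from 0. The libraries differ in depth, and YPT41 replicate 3 was the shallowest.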
